A study of Mus musculus with 46 samples.

Results

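The lysosomal genes followed here encode enzymes of the lysosome, proteins of its membrane and subunits of the proton pump that acidifies it. They were taken from a list of 36 symbols that was chosen with earlier results of these data known. A gene was counted through the probe sets that the platform annotation assigns to its symbol alone. Of the 36 genes 35 had such a probe set, 65 probe sets in all, out of 22626 probe sets for 12393 genes on the array, and Cd63 is not analysed here. All 35 passed the filter on low values, which asked for a value above the median of its array on at least 3 arrays. Of these, 30 lay above that median on each of the 46 arrays, while Ctsk did so on 15 arrays, Gla on 23, Galc on 28, Neu1 on 43 and Gusb on 44. Ctsk passed only through the day 5 arrays, so its day 5 changes are given as a description, with no test, and it is 1 of the genes in each day 5 count of genes called or not overlapping against day 0 or day 1.

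RNA was measured on Affymetrix MOE430A arrays in left ventricles of male mice, 15 to 20 weeks old, of the strains C57BL/6J (here C57) and MRL/MpJ (here MRL). Day 0 hearts came from unoperated mice, and day 1 and day 5 hearts were taken after occlusion of the left coronary artery with a suture. On each day the anterior-apical tissue with the border region, called infarct also at day 0, was separated with a biopsy punch from the remaining ventricle, called noninfarct. This gave 12 groups of strain, day and region with 4 arrays each and 3 in both C57 day 0 groups, 46 in all. No sham operation is named, so surgery and infarction cannot be told apart in a change from day 0. The labels call the arrays biological replicates without saying that each is a separate mouse, and which arrays of the different regions came from the same heart is not given.

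The lysosome is the acidic compartment in which cells break down what they take up by endocytosis and phagocytosis and what autophagy delivers from their own cytoplasm. The V-type proton pump keeps it acidic, the cathepsins cut proteins, glycosidases remove sugars one at a time from glycoproteins and glycolipids, and lipases and transfer proteins clear membrane lipids and cholesterol. Every heart cell has lysosomes, and macrophages, which clear dead muscle after an infarct, are especially rich in them. Many lysosomal genes carry in their promoters a short palindrome bound by the transcription factor TFEB and its relatives, known as the CLEAR element.

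Promoter sequence from RefSeq (GRCm38.p6, a short window around a start) was on hand for 31 of the 36 genes. The core of the CLEAR element, TCACGTGA, which reads the same on both strands, stood in the promoters of 5 of the 31 (16.1%) and of 1.76% of the 9888 array genes with a promoter. The shorter E-box within it, CACGTG, stood in 10 of the 31 (32.3%) and in 10.8% of array genes, and the full CLEAR palindrome, with 1 more base on either side of the core, stood in 0 of the 31 and in 0.556% of array genes. Short stretches are printed for 4 of the genes with the core, and for Lamp1, whose promoter held 4 E-boxes, since these are the letters on which the counts rest. Each line reads 5′ to 3′ along the gene's strand, with the palindrome in capitals.
Ctsa (chr2:164833713-164833772, plus strand): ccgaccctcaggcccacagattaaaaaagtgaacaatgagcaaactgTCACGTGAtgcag
Ctsd (chr7:142387893-142387952, minus strand): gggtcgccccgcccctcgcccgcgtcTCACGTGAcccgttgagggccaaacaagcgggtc
Gla (chrX:134601167-134601226, minus strand): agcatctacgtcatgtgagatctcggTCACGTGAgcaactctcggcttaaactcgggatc
Atp6v1a (chr16:44139358-44139417, minus strand): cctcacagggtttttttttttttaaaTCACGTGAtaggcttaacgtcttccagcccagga
Lamp1 (chr8:13159097-13159156, plus strand): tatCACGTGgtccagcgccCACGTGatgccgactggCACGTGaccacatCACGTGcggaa
Counted from the start, the printed core begins at -13 in Ctsa, -99 in Ctsd, -195 in Gla and -132 in Atp6v1a. Ctsa held a further core at 4 and Gla one at -228, and that of Atp6v0d1 begins at -4. The other genes with an E-box were Ctsl, Gaa, Glb1 and Atp6v0b. A match is a description of letters and not of a bound site.

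At day 5 in infarct tissue the 5 genes with the core had a median log2 change of 1.04 in C57 and 1.07 in MRL, with 5 and 4 of them called higher. The 25 genes whose promoters lacked it had medians of 1.22 and 1.22, with 20 and 18 called higher and Smpd1 called lower in both strains. In C57 the changes ran from 0.98 to 1.86 with the core and from -1.27 to 5.45 without it, so the largest rises described below lay among promoters without it. Another sequence, GAGGAAGT on either strand, which is bound by the myeloid transcription factor PU.1, was looked up after the values were known. It stood in the promoters of Ctss, Ctsc, Gusb and Gla, 4 of 31 (12.9%) against 3.36% of array genes.

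Before the comparisons, 3 libraries have to be named that lay apart from their groups on the first principal component of all probe sets, which held 52.7% of the variance. MRL day 5 infarct replicate 3 scored 11 where the other 3 arrays of its group scored 108 to 116, and the median difference of the 35 genes from day 0 was 0.37 on it and 1.44 to 1.63 on the others. C57 day 5 noninfarct replicate 3 scored 99.1 against -30.2 to 35.3, with a median of 1.15 against 0.18 to 0.56. C57 day 5 infarct replicate 1 scored 40.5 against 98.8 to 117, with a median of 0.81 against 1.37 to 1.58. On this component MRL day 5 infarct replicate 3 lay by the noninfarct arrays and C57 day 5 noninfarct replicate 3 by the infarct arrays of its strain and day. The brightest probe set of Galc read lower in MRL than in C57. On it C57 day 5 noninfarct replicate 3 was the lowest of its group at 3.33. MRL day 5 infarct replicate 3 was the highest of its group there at 4.92. Whether these arrays carry the right region and strain cannot be settled from the labels. This doubt stands behind each day 5 comparison below, of regions, of strains and with earlier days. All arrays were kept, and results that rest on these libraries are also given without them.

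**Figure D1:**
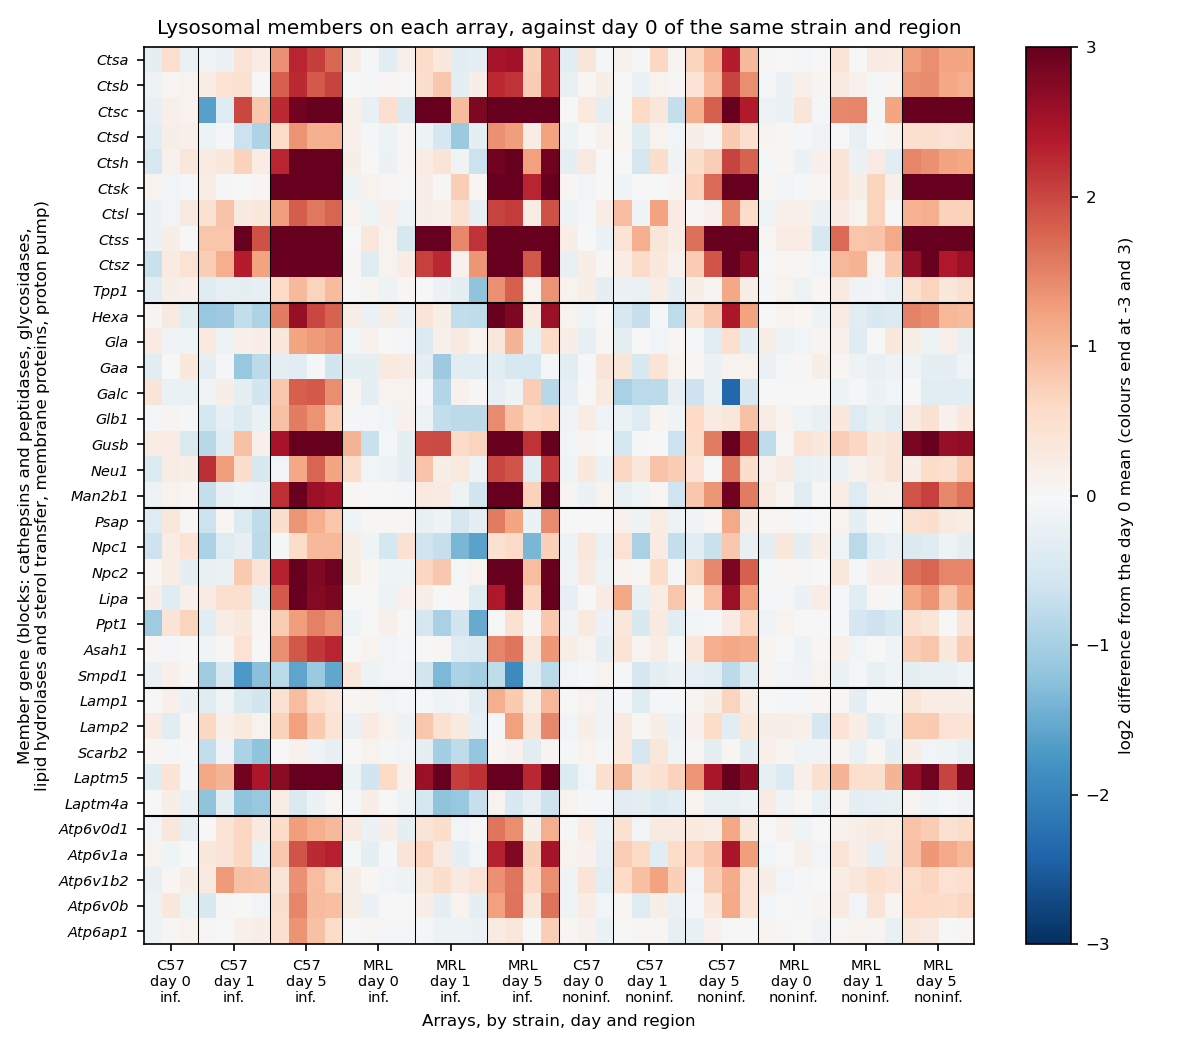
Each row is 1 of 35 lysosomal genes and each column 1 of 46 arrays, and the colour is the log2 difference from the mean of the day 0 arrays of the same strain and region, with colours ending at -3 and 3. The day 5 infarct columns are red over most rows except for the third array of MRL, and Smpd1 is blue there.

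At day 5 the infarct tissue of both strains held more RNA of most lysosomal genes. In C57 29 of the 35 genes were called higher than at day 0 and 1 lower, where 23.4% and 19.3% of all 12834 probe sets tested were called higher and lower. In MRL 26 were called higher and 1 lower, against 23.6% and 23.4% of probe sets. These counts take 1 probe set per gene. Of 17 genes with several tested probe sets, 5 in C57 and 7 in MRL had both called and uncalled ones, and 0 had opposite calls. The median log2 change of the 35 genes was 1.22 in each strain, while that of all probe sets was 0.00 in C57 and -0.05 in MRL. The MRL value includes replicate 3, with a median of 0.37 where the other arrays of its group had 1.44 to 1.63. The C57 value includes replicate 1, with 0.81 where the others had 1.37 to 1.58. That the strains had equal medians therefore depends on these arrays. The arrays of the groups did not overlap for 29 genes higher and 1 lower in C57 (probe sets 25.9% and 28%) and for 22 higher and 1 lower in MRL (21.1% and 26%).

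By role, the cathepsins and peptidases had median changes of 2.46 in C57 and 2.25 in MRL, with 10 of 10 called higher in both. On single MRL arrays their median was 1.00 on replicate 3 and 2.54 to 2.81 on the others. In C57 it was 2.01 on replicate 1 and 2.54 to 2.59 on the others. The glycosidases had medians of 1.29 and 1.15, with 6 and 5 of 8 called higher, and the genes of lipid breakdown and sterol transfer had medians of 1.22 and 0.99, with 5 and 4 of 7 higher. Membrane proteins had the lowest medians, 0.55 and 0.75 with 3 of 5 higher in each strain, and the proton pump had 0.96 and 1.22 with 5 and 4 of 5 higher. Genes not called in infarct tissue at day 5 in either strain were Gaa, Npc1, Scarb2 and Laptm4a.

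**Figure D2:**
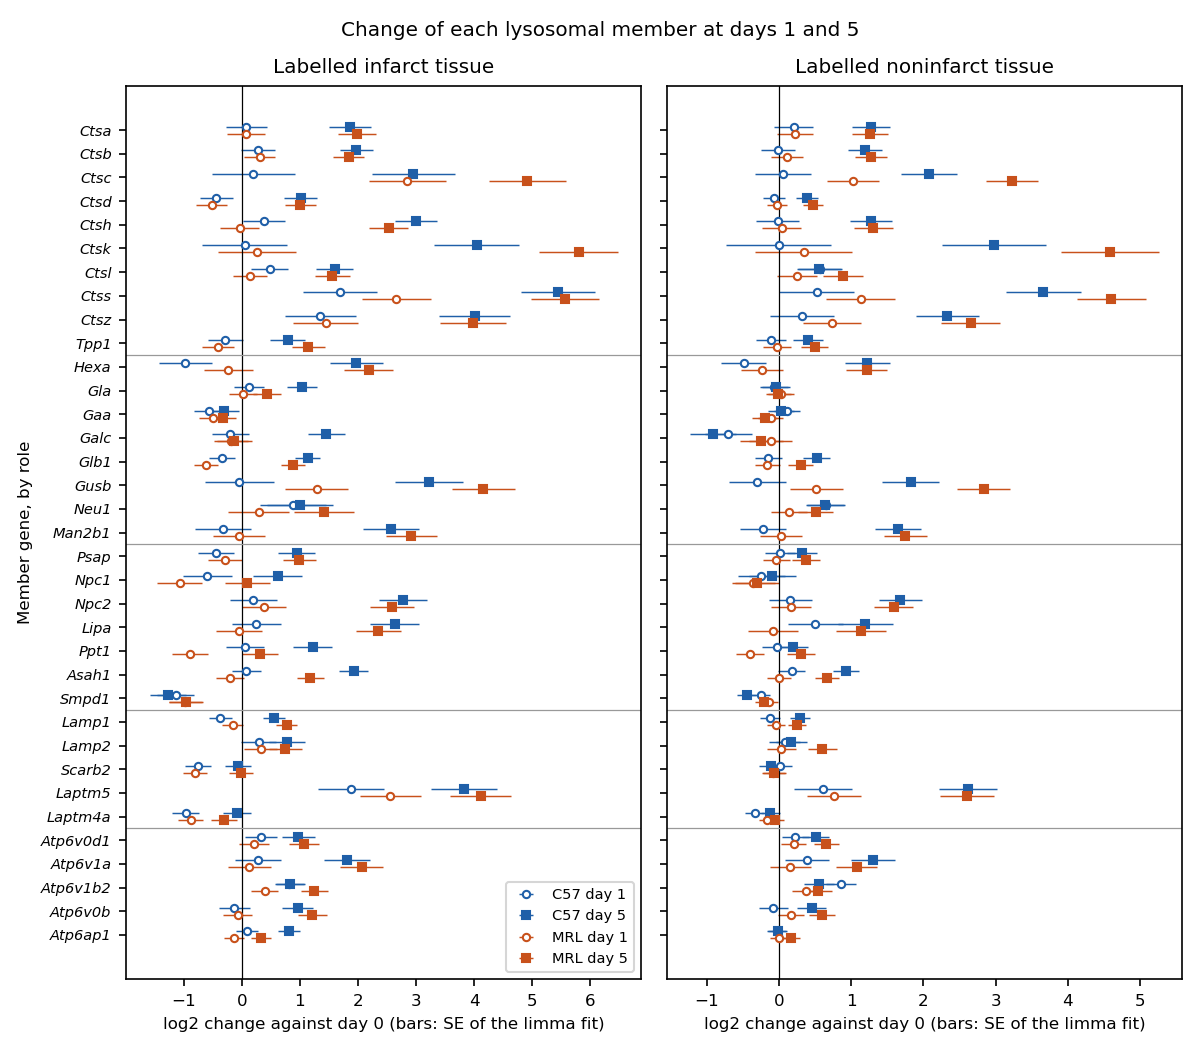
Each point is the log2 change of 1 gene from day 0 with the SE of the fit, in infarct tissue on the left and noninfarct tissue on the right, with open circles for day 1, filled squares for day 5, C57 in blue and MRL in orange. The day 5 squares spread to 5.45 in C57 and 5.80 in MRL, and the day 1 circles lie around 0 for most genes.

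Among the cathepsins, Ctss, a cysteine protease of antigen-presenting cells, had the largest change in C57. Its log2 intensity in C57 infarct tissue was 6.93, 7.28 and 7.09 at day 0, 7.93, 7.93, 10.25 and 9.02 at day 1 and 12.04, 12.79, 12.65 and 12.70 at day 5. In MRL it was 6.60, 6.92, 6.70 and 6.11 at day 0, 9.66, 10.54, 8.02 and 8.76 at day 1 and 13.02, 13.09, 10.09 and 12.38 at day 5. Each day 1 array of infarct tissue lay above each day 0 array of its strain, and day 5 lay above day 1 except that the third MRL array of day 5 lay within the range of day 1. The change at day 5 was 5.45 ± 0.64 (adjusted p = 2.5e-06) in C57 and 5.56 ± 0.59 (adjusted p = 5.5e-07) in MRL. At day 1 the MRL change of 2.66 ± 0.59 (adjusted p = 0.0035) was called and the C57 change of 1.68 ± 0.64 (adjusted p = 0.075) was not.

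Ctsk, a collagen-cutting cathepsin best known from bone-resorbing osteoclasts, went from background to a clear signal. In C57 infarct tissue it read 2.84, 2.64 and 2.69 at day 0, 2.95, 2.67, 2.71 and 2.79 at day 1 and 5.93, 7.40, 6.35 and 7.42 at day 5. The MRL arrays read 2.57, 2.83, 2.76 and 2.73 at day 0, 2.93, 2.76, 3.47 and 2.78 at day 1 and 9.84, 9.48, 5.02 and 9.76 at day 5. All day 0 and day 1 values lay below their arrays' medians of 4.22 to 4.48, and all day 5 values of infarct tissue lay above them without overlap. The fitted changes at day 5 were 4.05 and 5.80, whose size is not exact because the starting level is background. Ctsk was not called at day 1, with changes of 0.06 in C57 and 0.26 in MRL.

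Ctsz, a carboxypeptidase, read 6.96, 7.86 and 8.05 at day 0 and 10.58, 12.18, 11.82 and 11.96 at day 5 in C57 infarct tissue, and 7.86, 7.46, 7.93 and 8.04 at day 0 and 12.37, 12.67, 9.68 and 12.49 at day 5 in MRL. The groups did not overlap in either strain, and the changes were 4.01 ± 0.61 (adjusted p = 5e-05) and 3.98 ± 0.56 (adjusted p = 1.8e-05). Ctsh, an aminopeptidase, read 7.22, 7.81 and 8.04 at day 0 and 9.98, 11.12, 10.89 and 10.80 at day 5 in C57, and 7.53, 7.35, 7.18 and 7.39 at day 0 and 10.27, 10.46, 8.60 and 10.25 at day 5 in MRL. It rose by 3.00 and 2.53, with the third MRL array the lowest of the day 5 values but still above each day 0 array.

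Ctsc, the dipeptidyl peptidase that activates the serine proteases of neutrophils and mast cells, rose in both strains by day 5. In infarct tissue it read 8.30, 8.72 and 8.66 at day 0, 6.93, 8.17, 10.57 and 9.36 at day 1 and 10.81, 11.45, 11.58 and 12.20 at day 5 in C57. It read 6.51, 6.14, 6.88 and 5.93 at day 0, 9.72, 10.67, 7.30 and 9.16 at day 1 and 11.63, 11.83, 9.86 and 11.79 at day 5 in MRL. The 4 C57 arrays of day 1 spread on both sides of day 0, with a change of 0.20 ± 0.71 (adjusted p = 0.89), while the 4 MRL arrays lay above day 0, with a change of 2.85 ± 0.66 (adjusted p = 0.005). At day 5 it rose by 2.95 in C57 and 4.91 in MRL.

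The other 5 peptidases had smaller changes. Ctsb, a broad cysteine protease, rose by 1.97 in C57 and 1.84 in MRL at day 5. Ctsl, another cysteine protease, rose by 1.60 and 1.56, and Ctsa, the protective protein of galactosidase and neuraminidase, by 1.86 and 1.98. Ctsd, the main aspartic protease, rose by 1.02 and 1.01. Tpp1, a tripeptidyl peptidase lost in a neuronal storage disease, rose by 0.79 ± 0.30 (adjusted p = 0.039) in C57, a call that ended when any of 6 single arrays was left out (adjusted p up to 0.16), and by 1.15 ± 0.28 (adjusted p = 0.0022) in MRL. At day 1 none of these 5 genes was called in infarct tissue of either strain, with changes from -0.51 for Ctsd in MRL to 0.48 for Ctsl in C57.

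**Figure D3:**
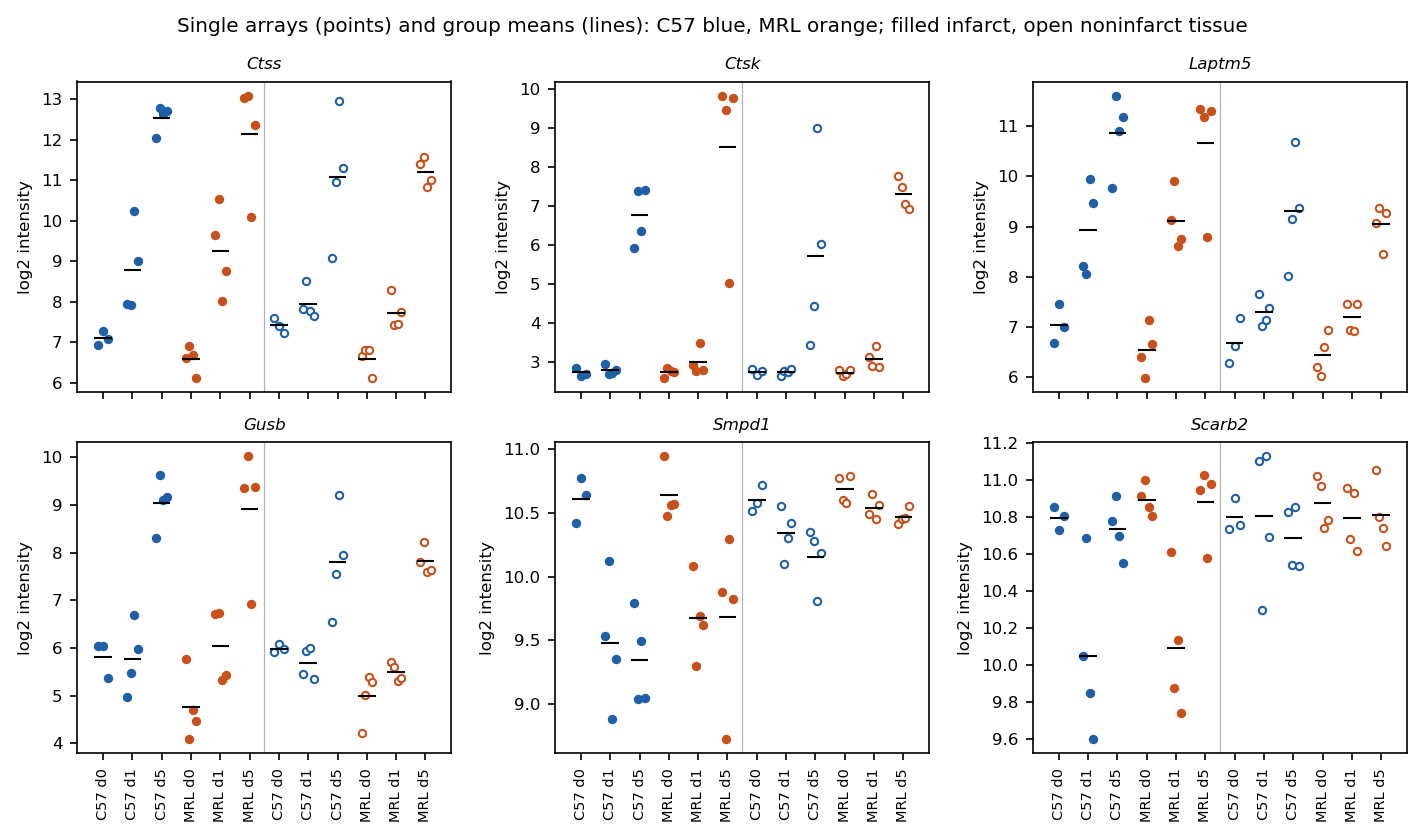
Points are single arrays and lines group means of the log2 intensity of 6 lysosomal genes in the 12 groups, with C57 in blue and MRL in orange, infarct tissue filled and noninfarct tissue open. Ctss, Ctsk, Laptm5 and Gusb stand high at day 5, Smpd1 stands low in infarct tissue at days 1 and 5, and Scarb2 is low at day 1.

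Gusb, beta-glucuronidase, had the largest change of the glycosidases. In C57 infarct tissue it read 6.04, 6.04 and 5.37 at day 0 and 8.30, 9.63, 9.10 and 9.16 at day 5. In MRL it read 5.78, 4.09, 4.71 and 4.47 at day 0 and 9.37, 10.02, 6.92 and 9.38 at day 5. The groups did not overlap, and the changes were 3.23 ± 0.59 (adjusted p = 0.0003) and 4.16 ± 0.54 (adjusted p = 7.2e-06). Man2b1, alpha-mannosidase, rose by 2.58 ± 0.48 (adjusted p = 0.00039) in C57 and 2.92 ± 0.45 (adjusted p = 3.9e-05) in MRL, and Hexa, the alpha subunit of beta-hexosaminidase, by 1.97 and 2.19. Glb1, beta-galactosidase and the classic stain of senescent cells, rose by 1.14 and 0.88 at day 5.

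Glb1 was the one glycosidase called at day 1 in infarct tissue. In MRL it read 5.38, 5.37, 5.33 and 5.55 at day 0 and 5.26, 4.66, 4.62 and 4.62 at day 1, so every day 1 array lay below day 0, and it changed by -0.62 ± 0.20 (adjusted p = 0.035). The call ended when any of 7 single arrays was left out (adjusted p up to 0.096) and with an offset of 32 on the intensities (adjusted p = 0.1). The C57 value was -0.34 ± 0.22 (adjusted p = 0.32).

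The other glycosidases were less uniform. Neu1, a sialidase, was called higher at day 5 in MRL with 1.41 ± 0.52 (adjusted p = 0.031), while C57 had 1.00 ± 0.56 (adjusted p = 0.16); the MRL call ended without any of 6 single arrays (adjusted p up to 0.1). Gaa, the acid alpha-glucosidase whose loss causes Pompe disease, was not called on its brightest probe set, with -0.31 in C57 and -0.33 in MRL at day 5. Its second tested probe set was called lower in MRL, with -1.08 ± 0.24 (adjusted p = 0.0031) at day 1 and -0.80 ± 0.24 (adjusted p = 0.0088) at day 5. Gla, alpha-galactosidase A, rose in C57 by 1.04 ± 0.26 (adjusted p = 0.0037) and was not called in MRL with 0.43 ± 0.24 (adjusted p = 0.15), on a probe set whose day 0 values lay near the array medians. Without MRL day 5 infarct replicate 3 and C57 day 5 noninfarct replicate 3 it was called higher in MRL too, with 0.65 ± 0.23 (adjusted p = 0.024). A further probe set of Gla did not pass the filter in noninfarct tissue. Its infarct values at day 5 stood above day 0 by 2.43 in C57 and 2.63 in MRL, given as a description with no test. Galc is described with the strain differences.

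Smpd1, acid sphingomyelinase, which cuts sphingomyelin to ceramide, was the only gene of the 35 called lower in infarct tissue at day 5. In C57 it read 10.42, 10.77 and 10.64 at day 0, 9.53, 10.13, 8.88 and 9.35 at day 1 and 9.79, 9.04, 9.49 and 9.04 at day 5. In MRL it read 10.94, 10.48, 10.56 and 10.57 at day 0, 10.08, 9.29, 9.69 and 9.62 at day 1 and 9.88, 8.72, 10.29 and 9.83 at day 5. Each day 1 and day 5 array lay below each day 0 array of its strain. It changed by -1.14 ± 0.31 (adjusted p = 0.017) at day 1 and -1.27 ± 0.31 (adjusted p = 0.0032) at day 5 in C57, and by -0.97 ± 0.29 (adjusted p = 0.023) and -0.96 ± 0.29 (adjusted p = 0.01) in MRL. Leaving out single arrays ended the day 1 calls in 3 cases in each strain (adjusted p up to 0.076 and 0.082), and the MRL day 5 call without MRL day 5 infarct replicate 2 (adjusted p = 0.057).

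At day 5 in infarct tissue the other genes of lipid and sterol handling rose or were not called. Npc2, the soluble cholesterol carrier of the lysosome, read 9.0, 9.16 and 8.68 at day 0 and 11.27, 12.04, 11.73 and 11.88 at day 5 in C57, and 9.16, 9.04, 8.86 and 8.86 at day 0 and 12.04, 12.37, 9.90 and 11.96 at day 5 in MRL. It rose by 2.78 and 2.58 without overlap. Lipa, the acid lipase that splits cholesteryl esters, rose by 2.63 and 2.35, and Asah1, acid ceramidase, by 1.92 and 1.18. Psap, the precursor of the saposins that help sphingolipid hydrolases, rose by 0.94 and 0.99, and the C57 call was lost without C57 day 0 infarct replicate 1 or C57 day 5 infarct replicate 2 (adjusted p up to 0.1). Npc1, the membrane partner of Npc2, was not called, with 0.62 ± 0.42 (adjusted p = 0.24) in C57 and 0.10 ± 0.39 (adjusted p = 0.86) in MRL.

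Ppt1, a thioesterase that removes fatty acids from proteins, differed between days. At day 5 it rose in C57 by 1.22 ± 0.33 (adjusted p = 0.0059), a call that ended without C57 day 0 infarct replicate 1 (adjusted p = 0.071), whose 5.41 lay below 6.87 and 7.15 on the other 2 day 0 arrays. In MRL the day 5 change was 0.32 ± 0.31 (adjusted p = 0.41). At day 1 it changed in MRL by -0.89 ± 0.31 (adjusted p = 0.043), with 7.04, 7.14, 7.31 and 7.14 at day 0 and 6.66, 6.20, 6.57 and 5.65 at day 1. That call was lost without any of 6 single arrays (adjusted p up to 0.15).

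The membrane proteins split into a gene of blood cells and genes of all cells. Laptm5, a membrane protein of lysosomes in white blood cells, read 6.68, 7.46 and 7.00 at day 0, 8.22, 8.06, 9.95 and 9.47 at day 1 and 9.76, 11.61, 10.91 and 11.19 at day 5 in C57 infarct tissue. In MRL it read 6.40, 5.97, 7.13 and 6.67 at day 0, 9.13, 9.91, 8.62 and 8.74 at day 1 and 11.34, 11.18, 8.80 and 11.31 at day 5. It stood above day 0 on each later array and rose by 1.88 ± 0.57 (adjusted p = 0.029) at day 1 and 3.82 ± 0.57 (adjusted p = 4.1e-05) at day 5 in C57. In MRL it rose by 2.56 ± 0.53 (adjusted p = 0.0022) at day 1 and 4.11 ± 0.53 (adjusted p = 5.8e-06) at day 5. The C57 day 1 call was lost without any of 5 single arrays (adjusted p up to 0.11).

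Laptm4a and Scarb2, membrane proteins of most cells, fell at day 1 and overlapped day 0 at day 5. Laptm4a, a transporter-like protein, read 10.94, 11.13 and 10.72 at day 0, 9.71, 10.62, 9.71 and 9.79 at day 1 and 11.14, 10.50, 10.75 and 10.98 at day 5 in C57. In MRL it read 11.16, 11.39, 11.17 and 11.03 at day 0, 10.67, 9.99, 10.06 and 10.50 at day 1 and 11.29, 10.73, 10.94 and 10.56 at day 5. Each day 1 array lay below each day 0 array, with changes of -0.97 ± 0.24 (adjusted p = 0.0092) and -0.88 ± 0.22 (adjusted p = 0.0086), and the day 5 changes were -0.08 and -0.31. The C57 call at day 1 was lost without C57 day 0 infarct replicate 2 (adjusted p = 0.053).

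Scarb2, the carrier that brings glucocerebrosidase to the lysosome, read 10.85, 10.73 and 10.80 at day 0 and 10.05, 10.69, 9.85 and 9.60 at day 1 in C57, and 10.91, 11.00, 10.85 and 10.80 at day 0 and 10.61, 9.87, 10.14 and 9.74 at day 1 in MRL. It changed by -0.75 ± 0.22 (adjusted p = 0.026) and -0.80 ± 0.21 (adjusted p = 0.0096), and at day 5 differed from day 0 by -0.06 and -0.01. Its other probe set did not show the fall, with 0.02 ± 0.23 (adjusted p = 0.96) and -0.07 ± 0.21 (adjusted p = 0.84), and was called higher in C57 at day 5 by 0.57 ± 0.23 (adjusted p = 0.048). The fall of Scarb2 thus rests on 1 of 2 probe sets, and its C57 call was also lost without any of 5 single arrays (adjusted p up to 0.089). Lamp1, an abundant glycoprotein of the lysosomal membrane, rose at day 5 by 0.55 ± 0.19 (adjusted p = 0.025) in C57, a call lost without any of 3 single arrays (adjusted p up to 0.11), and 0.78 ± 0.18 (adjusted p = 0.0014) in MRL. Lamp2, the receptor of chaperone-mediated autophagy, rose by 0.78 ± 0.31 (adjusted p = 0.046) and 0.75 ± 0.28 (adjusted p = 0.035), calls that ended without any of 6 and any of 5 single arrays.

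The 5 proton pump genes were all called higher in C57 at day 5 and all but Atp6ap1 in MRL. Atp6v1a, the catalytic subunit that splits ATP, had the largest change: in C57 infarct tissue it read 6.69, 6.47 and 6.61 at day 0 and 7.41, 8.48, 8.84 and 8.91 at day 5, and in MRL 6.44, 6.23, 6.45 and 6.89 at day 0 and 8.80, 9.28, 7.21 and 8.98 at day 5. The groups did not overlap, and it rose by 1.82 ± 0.40 (adjusted p = 0.0013) and 2.07 ± 0.37 (adjusted p = 0.00017). Atp6v0b, a subunit of the proton-carrying ring, rose by 0.96 and 1.22, a C57 call lost with the mean of its probe sets (adjusted p = 0.076), and Atp6v0d1, which links the ring to the catalytic part, by 0.98 and 1.07. Atp6ap1, an accessory subunit, rose in C57 by 0.82 ± 0.19 (adjusted p = 0.002) and was not called in MRL with 0.33 ± 0.18 (adjusted p = 0.13). None of these 4 genes was called at day 1.

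Atp6v1b2, the B subunit of the catalytic part in most tissues, was the pump gene called at day 1. In C57 infarct tissue it read 8.16, 8.44 and 8.56 at day 0, 8.65, 9.65, 9.27 and 9.24 at day 1 and 8.77, 9.76, 9.31 and 9.05 at day 5, and it rose by 0.82 ± 0.25 (adjusted p = 0.03) and 0.84 ± 0.25 (adjusted p = 0.011). The day 1 call was lost without any of 6 single arrays (adjusted p up to 0.12) and with median centring (adjusted p = 0.052), and the day 5 call without C57 day 0 infarct replicate 1 (adjusted p = 0.055). It also rose in C57 noninfarct tissue at day 1, by 0.86 ± 0.21 (adjusted p = 0.028), a call lost without noninfarct day 0 replicate 1 or 3 or day 1 replicate 3, from 8.09, 8.62 and 7.89 to 8.80, 9.11, 9.40 and 8.91. In MRL the day 1 changes were 0.39 ± 0.23 (adjusted p = 0.23) in infarct and 0.37 ± 0.20 (adjusted p = 0.47) in noninfarct tissue, and at day 5 it rose by 1.25. The other 2 tested probe sets of the gene were not called at either day in infarct tissue, and the mean of the probe sets ended each of its C57 calls from day 0 (adjusted p = 0.11 at day 1 and 0.6 at day 5 in infarct tissue, 0.22 in noninfarct tissue).

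At day 1 in infarct tissue the calls of these genes lay near the shares of all probe sets. In C57 2 of 35 genes were called higher (Laptm5 and Atp6v1b2) and 3 lower (Smpd1, Scarb2 and Laptm4a), where 9.39% and 6.16% of all probe sets were called. In MRL 3 were called higher (Ctsc, Ctss and Laptm5) and 5 lower (Glb1, Ppt1, Smpd1, Scarb2 and Laptm4a), against 10.4% and 11.1% of probe sets. The median changes were 0.08 in C57 and -0.04 in MRL, beside 0.01 and 0.00 over all probe sets. Leaving out single arrays moved the C57 count of 5 to 0 without C57 day 0 infarct replicate 2, to 1 without C57 day 0 replicate 3 or day 1 replicate 3, and to 2 without C57 day 0 replicate 1 or day 1 replicate 4. The MRL count of 8 was 5 without MRL day 0 infarct replicate 1 or MRL day 1 infarct replicate 2 or 4. Without MRL day 5 infarct replicate 3 and C57 day 5 noninfarct replicate 3, which enter through the shared estimate of the spread, the C57 count was 8, with Ctss at 1.68 ± 0.50 (adjusted p = 0.022), Ctsz at 1.35 ± 0.46 (adjusted p = 0.04) and Hexa, which was lower, at -0.97 ± 0.28 (adjusted p = 0.019) added.

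From day 1 to day 5, a comparison without day 0 arrays, 29 of 35 genes rose in C57 infarct tissue and 0 fell, where 18.5% and 15.7% of probe sets were called higher and lower. In MRL 27 rose and 0 fell, against 16.3% and 13.8%. The median change was 1.45 in C57 and 1.42 in MRL, and that of all probe sets -0.03 and -0.04. Apart from Ctsk, which started below the array medians, the largest changes were those of Ctss in C57, 3.76, and of Man2b1 in MRL, 2.96. Scarb2 and Npc1, not called at day 5 against day 0, rose between the days in C57 by 0.69 ± 0.21 (adjusted p = 0.015) and 1.21 ± 0.39 (adjusted p = 0.022). The call of Scarb2 was lost without C57 day 1 infarct replicate 4 (adjusted p = 0.058) and that of Npc1 without any of 3 single arrays (adjusted p up to 0.068). Smpd1 stayed low, with -0.13 in C57 and 0.01 in MRL between the days.

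In the noninfarct ventricle, too, most calls came at day 5. At day 1, 1 gene was called higher and 0 lower in C57 (Atp6v1b2), where 2.71% and 1.27% of all 12344 probe sets tested were called, and 0 in either direction in MRL, against 0.786% and 0.194%. At day 5 16 genes were called higher and 2 lower in C57, against 11.6% and 9.45% of probe sets, and 20 higher and 0 lower in MRL, against 16% and 8.17%. The medians at day 5 were 0.55 and 0.60, beside -0.05 and -0.04 over all probe sets. Cathepsins were called most often, 7 of 10 in C57 and 9 of 10 in MRL, and the proton pump in 1 and 3 of 5.

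Ctss had the largest fitted noninfarct change at day 5 in both strains, and Ctsk again left background. Ctss read 7.60, 7.41 and 7.23 at day 0 and 9.08, 10.95, 12.95 and 11.31 at day 5 in C57, and 6.65, 6.81, 6.81 and 6.11 at day 0 and 11.39, 11.58, 10.83 and 11.01 at day 5 in MRL. It rose by 3.66 ± 0.52 (adjusted p = 0.00021) and 4.61 ± 0.48 (adjusted p = 3.4e-06) without overlap. Ctsk read 2.81, 2.66 and 2.77 at day 0 and 3.44, 4.44, 9.0 and 6.02 at day 5 in C57, and 2.78, 2.64, 2.70 and 2.78 at day 0 and 7.77, 7.50, 7.05 and 6.92 at day 5 in MRL. The C57 arrays of day 5 thus spanned from near background to the level of MRL infarct tissue, while the MRL arrays lay close together. Ctsc rose by 2.08 and 3.23, Gusb by 1.82 and 2.83, Ctsz by 2.33 and 2.66, and Laptm5 by 2.62 and 2.60.

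The 2 genes called lower in C57 noninfarct tissue at day 5 were Galc and Smpd1. Smpd1 read 10.52, 10.57 and 10.72 at day 0 and 10.35, 10.28, 9.81 and 10.18 at day 5 and changed by -0.45 ± 0.13 (adjusted p = 0.024), while the MRL value was -0.22 ± 0.12 (adjusted p = 0.2). Without C57 day 5 noninfarct replicate 3, the array with the lowest values of both genes, Smpd1 lost its call (adjusted p = 0.083 without it and MRL day 5 infarct replicate 3), as did Galc (adjusted p = 0.1).

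At day 0 infarct and noninfarct tissue did not differ in a called gene of the 35 in either strain, with 0% and 0% of 13138 probe sets called in C57 and 0.00761% and 0.0228% in MRL. At day 1 the same 4 genes were called in both strains: Laptm5 higher in infarct tissue by 1.63 ± 0.47 (adjusted p = 0.031) in C57 and 1.91 ± 0.47 (adjusted p = 0.012) in MRL, and Smpd1, Scarb2 and Laptm4a lower. Smpd1 differed by -0.87 and -0.87, Scarb2 by -0.76 and -0.71, and Laptm4a by -0.86 and -0.79. The other probe set of Scarb2 was not called, with -0.27 ± 0.18 (adjusted p = 0.35) and -0.41 ± 0.18 (adjusted p = 0.14). The second probe set of Gaa was called lower in infarct tissue of both strains, with -0.58 ± 0.19 (adjusted p = 0.048) and -0.73 ± 0.19 (adjusted p = 0.015). All probe sets were called higher and lower in 3.93% and 3.38% in C57 and in 4.44% and 4.84% in MRL. In MRL day 1, where equal replicate numbers paired the regions in the data, the replicate block added Ctsc and Ctss and gave 6 calls in place of 4. The C57 count of 4 was 1 without C57 day 1 infarct replicate 3 or 4 or C57 day 1 noninfarct replicate 1 and 2 without C57 day 1 noninfarct replicate 3, and the MRL count was 1 without MRL day 1 infarct replicate 2.

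At day 5 10 genes were higher and 1 lower in infarct than in noninfarct tissue of C57, against 5.05% and 3.48% of probe sets. In MRL 9 were higher and 1 lower, against 4.48% and 9.54%. The median differences were 0.70 and 0.68, and the gene that was lower was Smpd1 in both, by -0.81 ± 0.22 (adjusted p = 0.028) and -0.79 ± 0.22 (adjusted p = 0.019). Called higher in both strains were Ctsh (1.52 and 1.29), Lipa (1.51 and 1.17), Npc2 (1.27 and 1.17), Glb1 (0.69 and 0.76) and Laptm5 (1.56 and 1.62). On the probe sets that represent the genes, the threshold was passed in C57 but not in MRL by Ctsl (0.97), Gla (1.07), Galc (2.05), Asah1 (1.04) and Atp6ap1 (0.65), and in MRL but not in C57 by Man2b1 (1.28), Lamp1 (0.48), Atp6v1a (0.99) and Atp6v1b2 (0.92). The other probe set of Gla, which did not pass the filter in noninfarct tissue, had its larger difference in MRL. It differed by 2.13 in MRL and 1.66 in C57, given as a description with no test. Whether the strains differ in these regional differences was not tested.

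The regional counts at day 5 rest on single libraries. In C57 the count of 11 was 26 without C57 day 5 noninfarct replicate 3 and 23 without C57 day 5 infarct replicate 1, and 4 to 6 without infarct replicate 2, 3 or 4 or noninfarct replicate 1 or 2. In MRL the count of 10 was 28 without MRL day 5 infarct replicate 3, 1 without infarct replicate 2, and 3 to 4 without infarct replicate 1 or 4 or noninfarct replicate 3 or 4. Without both libraries, C57 noninfarct replicate 3 and MRL infarct replicate 3, 27 genes were higher and 1 lower in each strain, with medians of 0.99 and 1.02. Apart from Ctsk, the genes with the largest regional difference were then Ctss in C57 at 2.10 ± 0.46 (adjusted p = 0.00067) and Laptm5 in MRL at 2.24 ± 0.40 (adjusted p = 3.2e-05).

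Between the strains few lysosomal genes were called, and few of all probe sets were. Of the 35 genes 0 were called at day 0 and day 1 in infarct tissue, against 0.67% higher and 0.397% lower in MRL than in C57 of all probe sets at day 0 and 0.366% and 0.631% at day 1. At day 5 1 was lower in MRL (Galc), against 0.179% and 0.506%. In noninfarct tissue 2 were lower in MRL at day 0 (Galc and Ctsc), against 0.956% and 0.843%, and 0 at day 1 and day 5, against 1.43% and 1.34% and 0.859% and 0.389%. With all arrays, the median difference of the 35 genes lay between -0.07 and 0.03 in these 6 comparisons, with a median SE of 0.22 to 0.32. Without C57 day 5 noninfarct replicate 3 and MRL day 5 infarct replicate 3 most genes read higher in MRL at day 5. In infarct tissue only Ctsh, Gla, Galc, Glb1, Ppt1, Asah1, Lamp2 and Atp6ap1 then read lower. In noninfarct tissue these were Ctsc, Ctsd, Ctsh, Galc, Glb1, Asah1, Lamp1 and Lamp2. Apart from Ctsk no gene that read higher in MRL was called. Without C57 day 5 infarct replicate 1 or MRL day 5 infarct replicate 3 the call in infarct tissue at day 5 was joined by another, without C57 day 5 noninfarct replicate 3 there were 3 calls in noninfarct tissue at day 5, and without MRL day 1 infarct replicate 3 there was 1 call in infarct tissue at day 1.

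Galc, the galactosylceramidase whose loss causes Krabbe disease, was the clearest of these. In infarct tissue of C57 it read 5.76, 5.18 and 5.17 at day 0, 5.25, 5.54, 5.09 and 4.82 at day 1 and 6.18, 7.16, 7.20 and 6.76 at day 5. In MRL it read 4.28, 3.88, 4.29 and 4.29 at day 0, 4.15, 3.32, 4.30 and 4.21 at day 1 and 3.94, 4.03, 4.92 and 3.34 at day 5, near or below the array medians. The strains did not overlap at any day in this region, and MRL minus C57 was -1.19 ± 0.32 (adjusted p = 0.093) at day 0, -1.18 ± 0.30 (adjusted p = 0.063) at day 1 and -2.77 ± 0.30 (adjusted p = 2.2e-05) at day 5. In C57 it rose at day 5 by 1.45 ± 0.32 (adjusted p = 0.0014), and in MRL the change was -0.13 ± 0.30 (adjusted p = 0.75).

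In noninfarct tissue Galc read 5.43, 5.67 and 5.95 at day 0 and 5.06, 5.49, 3.33 and 5.21 at day 5 in C57, and 4.31, 4.28, 4.28 and 4.28 at day 0 and 4.27, 3.95, 3.98 and 3.96 at day 5 in MRL. MRL minus C57 at day 0 was -1.39 ± 0.32 (adjusted p = 0.023), a call lost without any of 6 single arrays (adjusted p up to 0.13). In C57 it changed at day 5 by -0.91 ± 0.32 (adjusted p = 0.048), with replicate 3 far below the others. Another probe set of Galc, which lay near the array medians as well, went the other way. In infarct tissue it read 4.08, 3.96 and 4.48 at day 0 and 4.00, 3.94, 4.29 and 4.55 at day 5 in C57, and 4.35, 3.92, 3.97 and 3.96 at day 0 and 5.72, 5.08, 4.59 and 5.55 at day 5 in MRL. It rose in MRL at day 5 by 1.18 ± 0.25 (adjusted p = 0.00068) and not in C57, with 0.02 ± 0.27 (adjusted p = 0.96), and MRL minus C57 at day 5 was 1.04 ± 0.25 (adjusted p = 0.053). The strain difference of Galc therefore depends on the probe set, and whether the strains differ in the sequence under the probes was not tested.

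**Figure D4:**
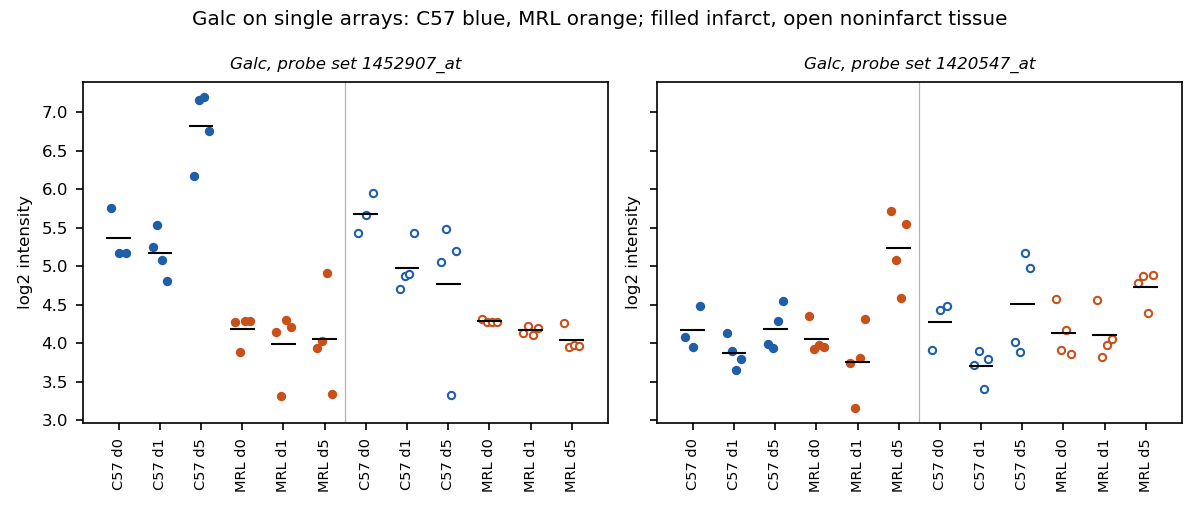
Points are single arrays and lines group means of the log2 intensity of Galc on 2 of its probe sets in the 12 groups, with C57 in blue, MRL in orange, infarct tissue filled and noninfarct tissue open. On the left probe set C57 reaches 7.20 at day 5 in infarct tissue and MRL stays below 5, while on the right probe set the highest values are those of MRL day 5 infarct tissue.

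Ctsc was lower in MRL noninfarct tissue at day 0, with 6.66, 6.65, 7.19 and 6.80 against 8.41, 8.69 and 8.10 in C57 and a difference of -1.58 ± 0.39 (adjusted p = 0.038). The call ended when any of 7 single arrays was left out (adjusted p up to 0.18). In infarct tissue at day 0 the difference was -2.20 ± 0.71 (adjusted p = 0.26), and there too the arrays of the strains did not overlap. At day 5 the strains differed by -0.23 ± 0.66 (adjusted p = 1) in infarct tissue.

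Ctsk had the largest strain difference at day 5 after that of Galc in infarct tissue. It is given as a description, with no test, as for its other day 5 changes. In infarct tissue MRL minus C57 was 1.75, with 3 MRL arrays at 9.48 to 9.84, above all C57 arrays, and the third at 5.02, below them. In noninfarct tissue it was 1.58, with 3 C57 arrays at 3.44 to 6.02 and the third at 9.0. Without these 2 libraries the difference was 2.92 in infarct and 2.68 in noninfarct tissue. These are the arrays whose Ctsk values lay farthest from their groups, so leaving them out also narrows the spread, and both results are given.

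With all arrays, the strain by infarction term, the MRL change minus the C57 change, was called for 0 of 35 genes at each day and region. All probe sets were called higher and lower in 0% and 0.0468% at day 1 and 0.0234% and 0.132% at day 5 in infarct tissue, and in 0.0081% and 0% and 0.0081% and 0% in noninfarct tissue. In infarct tissue at day 5 the term ran from -1.58 for Galc to 1.97 for Ctsc, with a median of 0.05 and a median SE of 0.44. Ctss, with 0.12 ± 0.87 (adjusted p = 1), and Smpd1, with 0.31 ± 0.43 (adjusted p = 1), had terms within their SE of 0 or close to it.

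Wider lists of lysosomal genes were read against the same shares of all probe sets at day 5, 23.4% higher and 19.3% lower in C57 and 23.6% and 23.4% in MRL. Of 19 other hydrolases tested 12 rose and 1 fell in C57 infarct tissue at day 5 and 13 rose and 1 fell in MRL, with medians of 1.54 and 1.78. Lgmn, the asparagine endopeptidase, rose by 3.58 ± 0.52 (adjusted p = 3e-05) in C57 and 3.12 ± 0.48 (adjusted p = 4.2e-05) in MRL, and Pla2g15, a lysosomal phospholipase, by 2.86 and 2.67. Of 11 other membrane proteins 4 rose in each strain, while 2 fell in C57 and 1 in MRL. Cd68, a membrane glycoprotein of macrophage lysosomes, rose by 6.18 ± 0.78 (adjusted p = 6.6e-06) and 6.08 ± 0.72 (adjusted p = 2.4e-06), and Slc11a1, a metal transporter of phagosomes, by 3.02 and 2.88, whereas Abca2, a lipid transporter, changed by -1.35 and -0.81.

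Among 11 other proton pump subunits 4 were called higher and 0 lower in C57, and MRL had 5 and 2. Tcirg1, the a3 subunit found in osteoclasts and immune cells, rose by 2.33 ± 0.61 (adjusted p = 0.0045) and 3.03 ± 0.56 (adjusted p = 0.00025), and Atp6ap2, the prorenin receptor, by 1.85 and 1.60. Of 15 genes of sorting and biogenesis C57 had 5 that rose with 1 that fell, and MRL had 3 and 2, which in MRL is not above the shares of all probe sets. M6pr, a mannose 6-phosphate receptor that carries enzymes to the lysosome, rose by 1.46 and 0.92, and Mitf, a relative of TFEB, changed by -1.21 ± 0.32 (adjusted p = 0.0051) and -1.74 ± 0.30 (adjusted p = 0.00012). Of 4 protease inhibitors tested, from a list of inhibitors of cysteine proteases, 3 rose in C57 and 4 in MRL, with Serpinb1a, a serpin best known for blocking the serine proteases of neutrophils, at 5.54 and 5.31 and Cstb, cystatin B, at 3.32 and 3.09.

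At day 1 the wider lists differed in their calls. Of all probe sets 9.39% were higher and 6.16% lower in C57 and 10.4% and 11.1% in MRL. In C57 infarct tissue 0 other hydrolases rose and 1 fell, and in MRL 0 rose and 1 fell. No gene of sorting was called higher, while 2 of 15 were called lower in C57 and 6 of 15 in MRL, which in MRL is above the share of all probe sets. Sort1, a sorting receptor, was among them in both strains, with changes of -1.31 ± 0.38 (adjusted p = 0.023) and -1.46 ± 0.35 (adjusted p = 0.0065). Day 1 counts of the other lists are not given here. From them, Atp6v1h, a regulatory pump subunit, rose by 1.24 ± 0.30 (adjusted p = 0.0074) and 1.15 ± 0.28 (adjusted p = 0.0064), and Cstb rose by 2.29 and 2.11.

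The tissue was not sorted, so more cells of a type and more RNA per cell cannot be told apart in any of these values. Macrophage and monocyte markers stood high at day 5, as most lysosomal genes did. The summed linear intensity of 18 macrophage and monocyte markers, none of them one of the 35 genes, was 1635 to 1864 in C57 infarct tissue at day 0, 1531 to 5165 at day 1 and 9544 to 20743 at day 5. In MRL it was 1121 to 1359, 1899 to 4331 and 4604 to 17265. On the MRL infarct arrays of day 1 the sum was 3553, 4331, 1899 and 2709, and the median lysosomal difference was 0.20, 0.14, -0.12 and -0.27. On those of C57 the median difference was -0.14, 0.01, 0.28 and -0.01, and the sum was 1531, 1936, 5165 and 3632. In noninfarct tissue at day 5 it was 2930 to 13256 in C57 and 5325 to 6530 in MRL, against 1517 to 1779 and 1274 to 1321 at day 0. Of these 18 markers 17 rose in infarct tissue at day 5 in each strain.

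The libraries that stood apart followed the same order. MRL day 5 infarct replicate 3 had a macrophage sum of 4604 against 15798 to 17265 on the other 3 arrays, C57 day 5 infarct replicate 1 had 9544 against 17983 to 20743, and C57 day 5 noninfarct replicate 3 had 13256 against 2930 to 8727. The part of macrophages in the changes was not tested.

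**Figure D5:**
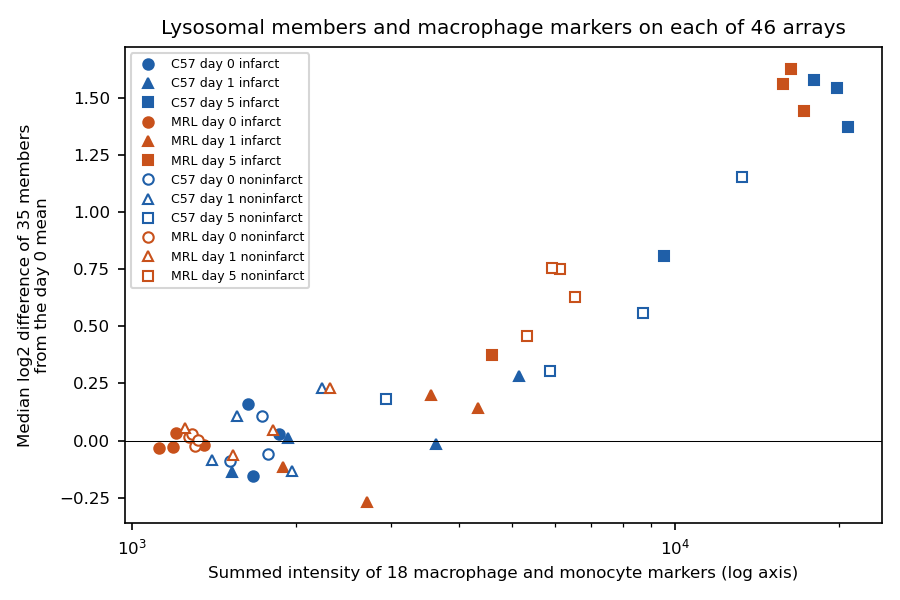
Each point is 1 of 46 arrays, with the summed linear intensity of 18 macrophage and monocyte markers on a log axis and the median log2 difference of the 35 lysosomal genes from day 0 on the vertical axis. Day 5 infarct arrays lie at the upper right, the day 5 infarct arrays of C57 replicate 1 (9544, 0.81) and MRL replicate 3 (4604, 0.37) lie lower, and the day 1 arrays lie near 0.

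Markers of fibroblasts, cardiomyocytes and neutrophils changed as well. The sum of 10 fibroblast markers was 7423 to 9253 in C57 infarct tissue at day 0 and 77271 to 100369 at day 5, and in MRL 9442 to 11624 and 46222 to 102341. The sum of 10 cardiomyocyte markers went from 243571 to 253292 at day 0 to 103933 to 199490 at day 5 in C57, and from 227913 to 252436 to 74470 to 225312 in MRL. At day 1 in infarct tissue the cardiomyocyte sum was 151447 to 226351 in C57 and 198356 to 212717 in MRL. In noninfarct tissue at day 5 the fibroblast sum was 26590 to 95886 in C57 and 59857 to 66265 in MRL, against 10007 to 11528 and 10078 to 13610 at day 0. Neutrophil markers, of which 3 of 9 with a probe set passed the filter, summed to 4436 to 6453 in C57 and 1545 to 3571 in MRL infarct tissue at day 1, and to 81.9 to 151 and 68.9 to 180 there at day 5. The part of these cells in the fall of Smpd1, Scarb2 and Laptm4a and in the rises was not tested. Of the markers of T lymphocytes 1 of 5, of B lymphocytes 1 of 4 and of mast cells 2 of 5 passed the filter on low values, and 8 of 8 endothelial markers did. The endothelial sum in infarct tissue was 2536 to 2848 at day 0 and 2208 to 2883 at day 5 in C57. In MRL it was 2284 to 2704 and 2193 to 2835.

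RNA quality was read from the 3′ and 5′ probe sets of Gapdh, whose log2 difference was -0.35 to 0.07 in the day 0 and noninfarct groups and reached 0.41 in C57 day 1, 0.38 in MRL day 1 and 0.73 in C57 day 5 infarct tissue. The part of RNA quality in the lysosomal values was not tested. Comparisons with day 0 in a strain and region share the same day 0 arrays, 3 in C57 and 4 in MRL, so a chance deviation there enters the changes at both days.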

How the data were processed

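The deposited intensities are linear GCRMA values (smallest 1.03), per the submitters' processing notes; log2 was taken of these deposited values with no pseudocount. GCRMA corrects background and quantile-normalizes, which evens out array-wide shifts and flattens dim probe sets. After 64 control probe sets were left out, probe sets above the array median on at least 3 arrays of a fit were tested. limma 3.58.1 in R 4.3.3 (lmFit, eBayes) was fitted to the 23 arrays of a region, or to all 46 for regional differences, with Benjamini-Hochberg adjustment over the probe sets tested and calls at an adjusted p under 0.05; all adjusted p-values here are limma's, and ± is the SE of the fit. The fits were tested on simulated data. Each p-value sets a difference against the spread between arrays, pooled over the groups of a fit. The labels do not say that this is a spread between separate mice, and the number of arrays limits precision.

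A gene was represented by its tested probe set with the highest mean over 46 arrays. The members and lists were chosen with earlier results of these data known. Array values are given for the genes with the largest called changes of each role, those that went against the list and those called between strains; of other lists at most 4 called genes are named.

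Infarct and noninfarct arrays of equal replicate number correlated clearly in every pair only in C57 day 0 (correlations of deviations 0.227 to 0.435) and MRL day 1 (0.337 to 0.557). In the other groups some pairs did and some did not. Alternatives were no filter, an offset of 32, quantile normalization, median centring, the mean of probe sets, 1 fit of 46 arrays, the replicate block, leaving out each array, and leaving out 2 libraries; leaving out 3 was chosen after seeing the data.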

Additional observations from a re-analysis of the deposited data

Results flagged for a closer look

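In 33 of the 360 sets of 4 arrays checked, 1 array lay far from the other 3, where chance gives about 18, or 1 in 20. MRL day 5 infarct replicate 3 held 13 of the 33: it was the lowest array of its group for Ctsb (12.34), Ctsc (9.86), Ctsd (11.69), Ctsh (8.60), Ctsk (5.02), Ctsl (10.53), Ctsz (9.68), Man2b1 (7.06), Npc2 (9.90) and Laptm5 (8.80), with Neu1 at 4.26 and Npc1 at 5.46 also apart, all as log2 intensity, and its median difference from day 0 over the 35 genes was 0.37. C57 day 5 noninfarct replicate 3 was apart for Tpp1 (9.60) and Atp6v0d1 (9.17).

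The remaining single arrays were scattered. At day 0 they were Galc in MRL infarct replicate 2 (3.88) and MRL noninfarct replicate 1 (4.31), Psap in MRL infarct replicate 1 (12.42) and Lamp2 in MRL noninfarct replicate 4 (9.89). At day 1 in infarct tissue they were Gaa (8.10) and Galc (3.32) in MRL replicate 2, Glb1 in MRL replicate 1 (5.26), Man2b1 in C57 replicate 1 (5.95) and Laptm4a in C57 replicate 2 (10.62). At day 1 in noninfarct tissue they were Man2b1 (5.87) and Lamp1 (11.12) in MRL replicate 2, Laptm4a in MRL replicate 1 (11.33), Lamp1 in C57 replicate 2 (11.12) and Atp6ap1 in C57 replicate 4 (8.44). At day 5 in noninfarct tissue they were Gaa in C57 replicate 2 (8.61), Asah1 in C57 replicate 1 (8.80), and Galc (4.27) and Lamp1 (11.75) in MRL replicate 1.

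On its brightest probe set Galc moved in opposite directions in the C57 regions at day 5, with the change from day 0 larger in infarct than in noninfarct tissue by 2.37 on the log2 scale. The other tested probe set did not show this, with changes of 0.02 in infarct and 0.24 in noninfarct tissue. On the brightest probe set the noninfarct change was -0.43 without C57 day 5 noninfarct replicate 3 and MRL day 5 infarct replicate 3. The difference between the changes in the 2 regions was not tested.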

How the results depend on the processing

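Of 197 calls of lysosomal genes over the 26 comparisons, 136 held under each alternative and without each single array, 27 were lost under at least 1 alternative, 58 without at least 1 array, and 0 changed sign. Of 228 counts under settings other than a left-out array, 194 lay within 1.5 times the reported count. Leaving out C57 day 5 noninfarct replicate 3 and MRL day 5 infarct replicate 3 moved the calls in C57 infarct tissue at day 1 to 8, in C57 noninfarct tissue at day 1 to 3, and between regions at day 5 to 28 in each strain. The calls between strains became 1 at day 0, 1 at day 1 and 2 at day 5 in infarct tissue and 1 at day 1 and 3 at day 5 in noninfarct tissue. Ctsk was 1 of these at day 5 in each region. Calls of strain by infarction at day 5 became 2 in infarct (Galc and Ctsk) and 1 in noninfarct tissue (Ctsk). Ctsk starts from background, so its calls here support nothing. Without C57 day 5 infarct replicate 1 as well, these counts did not move except for 30 between C57 regions. With the replicate block the regional calls at day 5 were 18 in each strain and those between strains in noninfarct tissue at day 0 were 1. At day 5 the correlations between regions of equal replicate number ran from -0.007 to 0.768 in C57 and from -0.021 to 0.467 in MRL. Whether equal numbers mark the same heart there is not known. The mean of probe sets gave 3 calls in C57 infarct tissue at day 1. Between strains, 1 fit of all 46 arrays gave 1 call at day 0 and 1 at day 1 in infarct tissue and 1 at day 0 in noninfarct tissue; quantile normalization gave 1 in infarct tissue at day 1 and 1 in noninfarct tissue at day 5; the offset gave 1 at day 0 and 1 at day 5 in noninfarct tissue, and no filter 1 at day 0. The cause was not tested. Without single arrays the calls against day 0 in infarct tissue ranged from 0 to 6 in C57 and 5 to 9 in MRL at day 1 and from 24 to 29 and 24 to 28 at day 5, and those in C57 noninfarct tissue at day 1 from 0 to 1. Regional calls ranged from 1 to 5 in C57 and 1 to 6 in MRL at day 1, and from 4 to 26 and 1 to 28 at day 5. Strain calls ranged from 0 to 1 at day 1 and 1 to 2 at day 5 in infarct tissue and from 0 to 1 at day 0 and 0 to 3 at day 5 in noninfarct tissue, and strain by infarction calls reached 2 in infarct and 1 in noninfarct tissue at day 5. Probe sets near the array medians, such as those of Galc, Gla and Ctsk at day 0, limit what a fold change shows.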
